A study of Homo sapiens with 8 samples.

Results

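The EGFR (ErbB) family genes described here are 4 receptors, EGFR, ERBB2, ERBB3 and ERBB4, and 6 ligands, AREG, EREG, HBEGF, TGFA, BTC and EPGN. They were taken by gene symbol from the 59050 symbols of each count table, and all 10 were found. The choice of these genes was made with earlier results of these data known. All 10 also passed the filter on low counts that left 16219 genes to be tested. RNA sequencing counts came from 8 tumours that grew as xenografts from H2122, an established human lung adenocarcinoma cell line. The parental group had 4 tumours with the genotype given as WT. The other 4 tumours came from H2122 cells with a knockout of SMARCA4, an ATPase subunit of the SWI/SNF chromatin remodelling complex. All 8 tumours had received vehicle and no other agent. Whether the knockout cells were 1 clone, and which host strain carried the tumours, are not given in the sources used here. Replicates are not further described, so p-values measure the spread between these 8 tumours.

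The ErbB receptors are tyrosine kinases at the cell surface that signal in pairs. Their ligands are made as membrane-bound precursors and cut free by proteases of the ADAM family, after which EGFR drives the RAS-ERK and PI3K pathways. ERBB2 has no known soluble ligand and ERBB3 has a weak kinase, so both act mainly through their partners. In lung epithelium and lung adenocarcinoma the family is known as a driver of growth and as a drug target.

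Gene counts totalled 19785922 to 23191698 in the parental libraries and 20662882 to 21981123 in the knockout libraries. Levels are given as CPM, the count of a gene scaled to the size of its library. The SMARCA4 level fell from 220.4 ± 16.0 CPM (SD, n = 4) in parental tumours to 27.3 ± 3.90 in knockout tumours, 12.4% of the parental level, and was low in 4 of 4 knockout tumours. Epithelial markers such as EPCAM and KRT8 were abundant, with a sum over 9 genes of 5750 to 6920 CPM in parental and 4630 to 6230 CPM in knockout tumours. Of this list KRT7 and KRT19 fell, by 0.71 and 1.01 on the log2 scale (edgeR adjusted p = 0.000333 and 8.48e-05). NKX2-1, a lung lineage factor in that list, had no count in any of the 8 libraries, which allows up to 3 counts in each. The lung markers NAPSA and SFTPB were also low, at 0.917 and 0.198 CPM in parental and 1.07 and 0.225 CPM in knockout tumours. The summed level of 10 leukocyte markers was 13.3, 75.8, 64.9 and 7.56 CPM in parental tumours 1 to 4 and 13.2 to 31.2 CPM in knockout tumours, with none of the 10 at 0 throughout. For 7 fibroblast markers the sum ran from 179 to 606 CPM in parental and from 342 to 602 CPM in knockout tumours. Most of this sum was COL1A1, whose group means were 352.6 (parental) and 445.8 CPM (knockout). COL1A2 and COL3A1 averaged 5.03 and 11.47 CPM without the knockout, and 7.604 and 10.25 CPM with it. In the parental group PDGFRA, PDGFRB and DCN averaged only 0.0707, 0.305 and 0.0989 CPM. Their means in the knockout group were 0.0122, 0.177 and 0.284 CPM. Of the 7 fibroblast markers 4 were tested and 1, LUM, was called, with a rise from 0.374 ± 0.236 to 12.4 ± 2.49 CPM (edgeR adjusted p = 1.98e-06). For 6 endothelial markers the sum was 7.29 to 17.8 CPM in parental and 8.86 to 15.3 CPM in knockout tumours. Only 2 were tested. VWF fell from 1.97 ± 0.805 to 0.378 ± 0.0707 CPM (edgeR adjusted p = 0.000410), and PECAM1 was not called (log2 fold change 0.30, edgeR adjusted p = 0.504). The sum of 9 squamous keratinocyte markers was 58.6 to 76.2 CPM in parental tumours and 74.7 to 136 CPM in knockout tumours, with LOR at 0 throughout. Its highest value was in knockout tumour 4, which had 334 counts of the basal keratin gene KRT5 against at most 10 in any other tumour. KRT14 was higher in all 4 knockout tumours, with 174, 103, 186 and 800 counts against 3 to 16 in parental libraries (log2 fold change 5.01, edgeR adjusted p = 0.000433). DSG3 rose by 0.83 and TP63 fell by 2.34 on the log2 scale (edgeR adjusted p = 0.00436 and 0.000213). Reads were counted on the human build hg38, and any removal of mouse reads is not given. Marker counts from host cells and from the H2122 cells themselves therefore cannot be told apart. The part of other cell types in the results on the family was not tested. In bulk tumours, fewer cells of a type and less RNA per cell cannot be told apart.

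Of the 10 family genes, 4 rose in the knockout tumours and 2 fell. The genes that rose were the ligands AREG, EREG and HBEGF and the receptor EGFR, and those that fell were the receptors ERBB2 and ERBB3. ERBB4, TGFA, BTC and EPGN did not pass the test. Over all genes tested with edgeR's quasi-likelihood test, 27.0% were called at an adjusted p under 0.05, 13.0% higher and 14.1% lower. The median log2 fold change, knockout over parental, was 0.34 for the 10 genes, 0.59 for the 6 ligands and -0.43 for the 4 receptors, beside 0.00 for all genes tested. Values of the parental and knockout groups did not overlap for 4 of the 10 genes, AREG, EREG, ERBB2 and ERBB3, beside 29.3% of all genes tested.

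**Figure D1:**
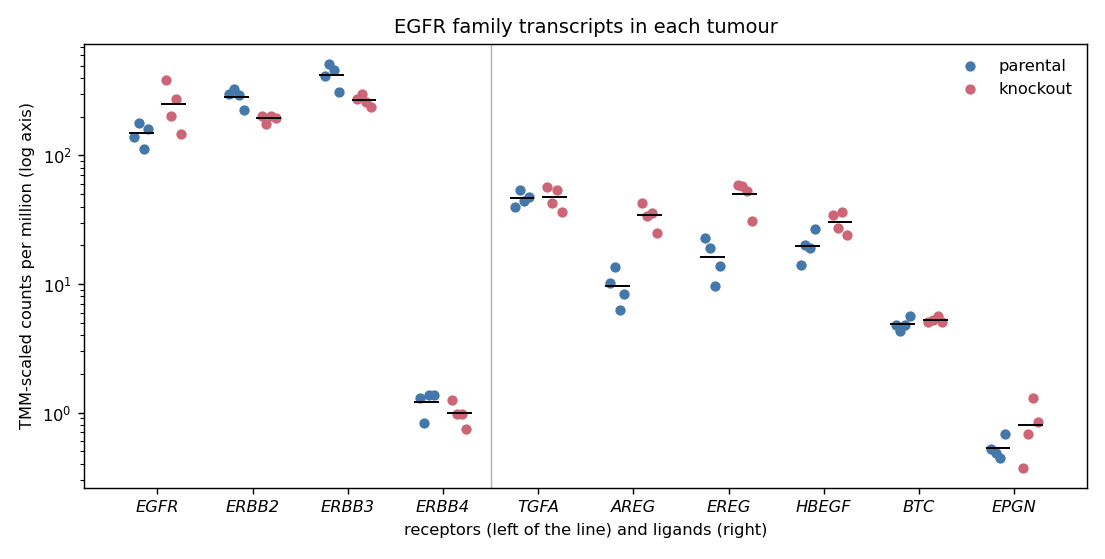
Level of each family gene in each of the 8 tumours, in CPM on a log axis, with points for tumours and a bar for the group mean. The knockout points lie above all parental points for AREG and EREG and below them for ERBB2 and ERBB3.

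**Figure D2:**
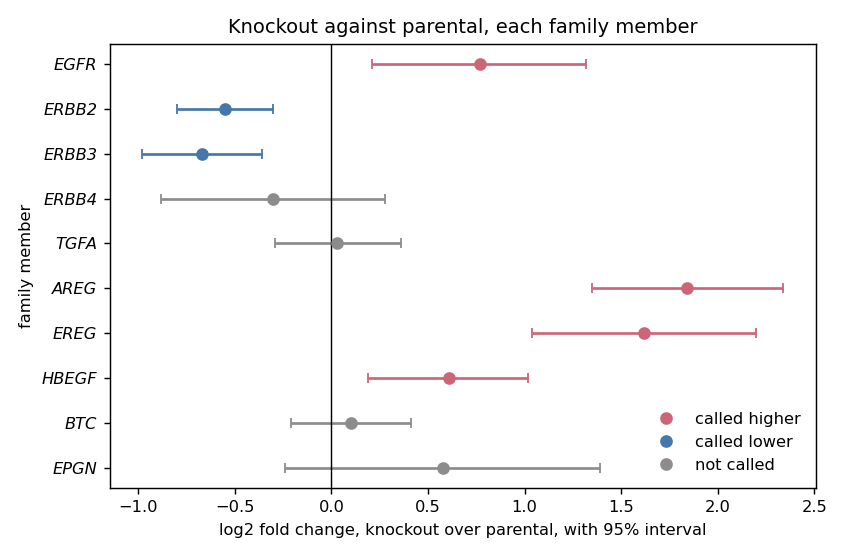
Fitted log2 fold change of each family gene, knockout over parental, with its 95% confidence interval. The intervals of AREG, from 1.35 to 2.34, and EREG, from 1.04 to 2.20, lie above those of TGFA and BTC, and the intervals of ERBB2 and ERBB3 lie below 0.

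Amphiregulin (AREG) and epiregulin (EREG), both ligands of EGFR, are neighbouring genes on chromosome 4. In the GENCODE 29 annotation of GRCh38, EREG is at chr4:74365143-74388751 and AREG at chr4:74445134-74455009, both on the plus strand and 56382 bases apart. Because these neighbours rose together, the 250 bases before their start in RefSeq (GRCh38.p14, plus strand) are shown with those of epigen (EPGN), the ligand gene next to them that was not called. Capitals mark matches to the motifs searched. In AREG (chr4:74444886-74445135) they mark TGACGTCA, the cAMP response element, then TATAAA, then CCGCCC, the GC box read on the other strand. In EREG (chr4:74364895-74365144) they mark CATTCC, the TEAD motif GGAATG read on the other strand, then TATAAA. In EPGN (chr4:74308220-74308469) they mark TATAAA.
AREG: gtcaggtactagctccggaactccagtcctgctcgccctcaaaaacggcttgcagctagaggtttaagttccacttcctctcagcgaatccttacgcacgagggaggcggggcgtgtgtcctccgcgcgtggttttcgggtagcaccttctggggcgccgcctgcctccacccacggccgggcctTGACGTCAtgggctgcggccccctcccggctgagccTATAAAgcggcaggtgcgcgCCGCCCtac
EREG: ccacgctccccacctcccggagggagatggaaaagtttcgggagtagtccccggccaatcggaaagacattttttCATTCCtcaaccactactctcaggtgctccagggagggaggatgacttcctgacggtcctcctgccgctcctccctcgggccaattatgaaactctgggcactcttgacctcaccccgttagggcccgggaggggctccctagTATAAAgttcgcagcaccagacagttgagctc
EPGN: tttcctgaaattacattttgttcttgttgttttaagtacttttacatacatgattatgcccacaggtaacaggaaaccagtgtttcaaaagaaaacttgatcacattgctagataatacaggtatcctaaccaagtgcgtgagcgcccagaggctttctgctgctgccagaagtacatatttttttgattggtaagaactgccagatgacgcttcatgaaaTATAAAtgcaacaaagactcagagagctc
All 3 stretches held TATAAA on the gene's own strand, 29 to 24 bases before the start in AREG and EPGN and 32 to 27 bases before it in EREG, beside 6.80% of 35116 RefSeq promoter stretches of this length. The AREG stretch held TGACGTCA 65 to 58 bases before the start, beside 1.65% of all stretches. CATTCC lay 175 to 170 bases before the EREG start, and GGAATG on either strand was found in 11.9% of stretches. CCGCCC lay 9 to 4 bases before the AREG start, and the GC box on either strand was found in 42.6% of stretches. Neither TGANTCA, the AP-1 motif searched with any base at its centre, nor the E-box CACGTG was in any of the 3 stretches. The 2 motifs were present in 6.57% and 6.34% of all stretches, and none of the motifs searched overlapped another match in these 3 stretches. The share of G and C was 65.2% in the AREG stretch, 58.0% in EREG and 38.0% in EPGN, beside a median of 58.0% over all stretches. TATAAA was in none of the stretches of the other 6 family genes with an entry. Of these, EGFR held 2 GC boxes, TGFA 3, ERBB4 1 and HBEGF 5, of which 2 overlap by 1 base. ERBB2 held TGATTCA, a match to TGANTCA with T at the open centre base, and BTC held none of the 6 motifs. A match describes letters in the window and not a bound site.

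AREG had 10.2, 13.5, 6.24 and 8.32 CPM in parental tumours 1 to 4 and 42.7, 33.5, 35.8 and 24.8 CPM in knockout tumours 1 to 4. Each knockout tumour lay above each parental tumour, with knockout tumour 1 highest and knockout tumour 4 the lowest of its group. The mean rose from 9.56 ± 3.06 to 34.2 ± 7.38 CPM (SD, n = 4 each), 3.59-fold, with a log2 fold change of 1.84 (edgeR: SE 0.225, adjusted p = 0.000127). EREG had 22.7, 19.2, 9.59 and 13.9 CPM in parental tumours and 59.0, 57.4, 53.1 and 30.7 CPM in knockout tumours. Its groups were also apart, and knockout tumour 4 stood well below the other knockout tumours. The EREG mean rose from 16.3 ± 5.78 to 50.04 ± 13.2 CPM, 3.07-fold, with a log2 fold change of 1.62 (edgeR: SE 0.263, adjusted p = 0.000919). Without parental tumours 2 and 3, which had the highest leukocyte marker sums, the log2 fold changes were 1.88 for AREG and 1.45 for EREG. Without knockout tumour 4, which had the highest squamous marker sum, they were 1.97 and 1.80. Both genes passed the test in each of these fits.

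Heparin-binding EGF-like growth factor (HBEGF), a ligand of EGFR and ERBB4, lies at chr5:140332843-140346631 on the minus strand. It had 14.1, 19.9, 18.9 and 26.6 CPM in parental tumours 1 to 4 and 34.2, 27.1, 36.2 and 24.0 CPM in knockout tumours 1 to 4. Knockout tumour 4 lay inside the parental range, below parental tumour 4, and the other 3 knockout tumours lay above all parental tumours. The mean rose from 19.9 ± 5.17 to 30.3 ± 5.78 CPM, 1.52-fold, with a log2 fold change of 0.61 (edgeR: SE 0.188, adjusted p = 0.0331). This call was lost when parental tumour 1, 2 or 3 or knockout tumour 1 or 3 was left out, with log2 fold changes of 0.47 to 0.78 over the 8 leave-one-out fits. It was also lost without parental tumours 2 and 3 together, at 0.56 with an edgeR adjusted p of 0.108.

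Transforming growth factor alpha (TGFA), a ligand of EGFR at chr2:70447280-70554193 on the minus strand, had 39.7, 53.8, 44.2 and 47.8 CPM in parental tumours and 56.8, 43.0, 53.9 and 36.1 CPM in knockout tumours. The groups overlapped, with the highest and the lowest of the 8 values both in knockout tumours, the highest in tumour 1 and the lowest in tumour 4. Its log2 fold change was 0.03, with a 95% interval from -0.29 to 0.36 (edgeR adjusted p = 0.896). Betacellulin (BTC), which binds EGFR and ERBB4, had 4.76, 4.34, 4.82 and 5.65 CPM in parental and 5.09, 5.21, 5.59 and 5.08 CPM in knockout tumours. The knockout values lay inside the parental range, and the log2 fold change was 0.10, with an interval from -0.21 to 0.41 (edgeR adjusted p = 0.652). EPGN, another EGFR ligand, was near the floor of the assay, with 10, 10, 10 and 16 counts in parental and 8, 14, 28 and 18 counts in knockout libraries. Its lowest value was in knockout tumour 1 and its highest in knockout tumour 3. The log2 fold change of EPGN was 0.58, with an interval from -0.24 to 1.39 (edgeR adjusted p = 0.284), an interval that holds both 0 and the value of HBEGF.

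Among the receptors, ERBB3, the kinase-impaired partner that binds neuregulins, lies at chr12:56076799-56103505 on the plus strand. It had 412.7, 512.7, 463.8 and 313.4 CPM in parental tumours 1 to 4 and 274.8, 300.2, 259.0 and 238.0 CPM in knockout tumours 1 to 4. The groups were apart, by the narrow gap between parental tumour 4 and knockout tumour 2. Its mean fell from 426 ± 85.3 to 268 ± 26.2 CPM, to 63.0% of the parental level, with a log2 fold change of -0.67 (edgeR: SE 0.141, adjusted p = 0.00459). ERBB2, at chr17:39687914-39730426 on the plus strand, had 298.2, 326.3, 294.5 and 224.4 CPM in parental and 203.5, 176.1, 203.0 and 196.7 CPM in knockout tumours. Parental tumour 4 was again the lowest of its group and still above each knockout tumour. The ERBB2 mean fell from 286 ± 43.4 to 195 ± 12.9 CPM, to 68.2% of the parental level, with a log2 fold change of -0.55 (edgeR: SE 0.114, adjusted p = 0.00409). Parental tumours 2 and 3, with the highest leukocyte marker sums, held the highest ERBB3 values, and parental tumour 2 the highest ERBB2 value. Without these tumours the log2 fold changes were -0.43 for ERBB2 and -0.45 for ERBB3, and both genes passed the test. Exons of ERBB2 overlap those of PGAP3 and MIEN1 on the other strand. Whether counting used strand is not given in the sources used here, so reads in those overlaps cannot be told apart.

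EGFR, the receptor of all 6 ligands, lies at chr7:55019021-55211628 on the plus strand. It had 140.1, 180.3, 112.1 and 159.9 CPM in parental tumours 1 to 4 and 385.5, 201.0, 275.1 and 148.0 CPM in knockout tumours 1 to 4. Knockout tumours 1, 2 and 3 lay above all parental tumours, and knockout tumour 4 lay inside the parental range. Its mean rose from 148 ± 29.1 to 252 ± 103 CPM, 1.70-fold, with a log2 fold change of 0.77 and a 95% interval from 0.21 to 1.32 (edgeR: SE 0.252, adjusted p = 0.0425). The call was lost when parental tumour 1, 3 or 4 or knockout tumour 1 or 3 was left out, with log2 fold changes of 0.49 to 0.96 over the 8 leave-one-out fits, and the lowest, 0.49, came without knockout tumour 1. It was also lost without parental tumours 2 and 3 together, at 0.74 with an edgeR adjusted p of 0.0905. ERBB4, a receptor of neuregulins, at chr2:211375717-212538841 on the minus strand, had 25, 17, 31 and 32 counts in parental and 27, 20, 21 and 16 counts in knockout libraries. The groups overlapped, and the log2 fold change was -0.30, with an interval from -0.88 to 0.28 (edgeR adjusted p = 0.441).

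Knockout tumour 4 had the lowest value of its group for 8 of the 10 genes, EGFR, ERBB3, ERBB4, TGFA, AREG, EREG, HBEGF and, by a narrow margin, BTC. It was also the tumour with the highest squamous keratinocyte marker sum, 136 CPM, and with a skeletal muscle marker sum of 15.5 CPM against 0.389 to 0.933 CPM in the other knockout tumours. That sum was 0.517, 33.9, 0.624 and 6.75 CPM in parental tumours 1 to 4, so parental tumour 2 was the highest of the 8. Without knockout tumour 4, the log2 fold change of EGFR was 0.96 and that of HBEGF was 0.71, and both passed the test.

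Levels of different genes were compared as CPM per kilobase of merged exons. In parental tumours the order was ERBB3 (47.1 ± 9.43), ERBB2 (27.7 ± 4.20), EGFR (11.8 ± 2.32), TGFA (9.34 ± 1.20), HBEGF (6.59 ± 1.71), AREG (5.80 ± 1.86), EREG (2.86 ± 1.01), BTC (1.74 ± 0.194), EPGN (0.294 ± 0.0563) and ERBB4 (0.0934 ± 0.0200). The values of neighbours in this order overlapped between tumours from EGFR down to BTC, while ERBB3, ERBB2 and EGFR were apart from each other, as were BTC, EPGN and ERBB4. In knockout tumours ERBB3 stayed first, at 29.7 ± 2.90 CPM per kb, and AREG came second, at 20.8 ± 4.48, beside EGFR at 20.2 ± 8.22 and ERBB2 at 18.9 ± 1.25. AREG, EGFR and ERBB2 overlapped in the knockout tumours, and the ERBB3 range, 26.3 to 33.2, overlapped that of EGFR, 11.8 to 30.8. HBEGF at 10.1 ± 1.92, TGFA at 9.56 ± 1.94 and EREG at 8.75 ± 2.30 followed, apart from ERBB2 and overlapping each other. BTC at 1.86 ± 0.0856, EPGN at 0.441 ± 0.214 and ERBB4 at 0.0760 ± 0.0162 came last and were apart from each other and from EREG.

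The summed level of the 6 ligands per kb was 24.8, 30.8, 22.6 and 28.3 in parental tumours and 61.0, 50.2, 56.6 and 37.9 in knockout tumours. The lowest knockout sum, in tumour 4, lay above the highest parental sum. Of this sum, AREG made up 21.5% ± 4.95 (SD, n = 4) in parental and 40.3% ± 1.71 in knockout tumours, and TGFA made up 35.2% ± 3.05 and 18.6% ± 0.928. The most abundant ligand per kb was therefore TGFA in 4 of 4 parental tumours and AREG in 4 of 4 knockout tumours. EREG made up 10.7% ± 3.80 and 16.9% ± 2.41, and HBEGF 24.8% ± 5.67 and 19.6% ± 1.69. The summed level of the 4 receptors per kb was 85.8, 103, 88.9 and 69.3 in parental and 81.0, 66.4, 70.4 and 57.3 in knockout tumours, and these groups overlapped. EGFR made up 13.9% ± 3.46 of the receptor sum in parental and 28.5% ± 7.71 in knockout tumours, and its share was higher in each knockout tumour than in each parental tumour. These sums and shares depend on the exon lengths used and were given no test.

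**Figure D3:**
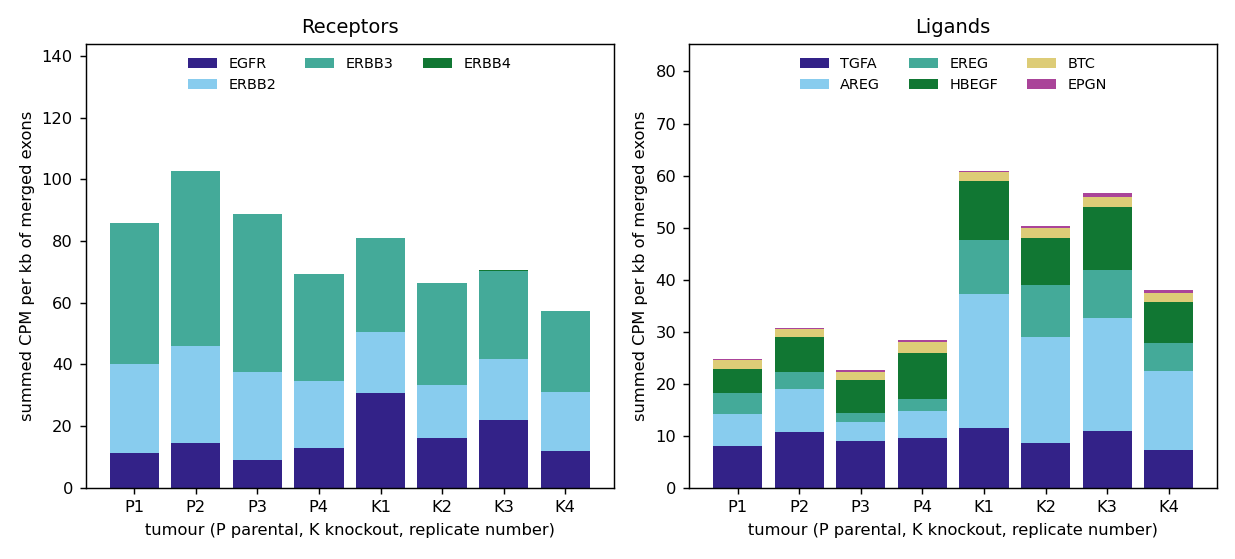
Summed level of the ligands (6 genes) and of the receptors (4 genes) in each tumour, in CPM per kb, with each bar divided by gene. The ligand bars of the knockout tumours, 37.9 to 61.0, lie above those of the parental tumours, 22.6 to 30.8, and the AREG section is the largest in each knockout tumour.

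Differences between family genes were tested as log2 ratios within a tumour for 4 pairs. The log2 ratio of EGFR to ERBB2 was -1.09, -0.85, -1.39 and -0.49 in parental and 0.92, 0.19, 0.44 and -0.41 in knockout tumours. All knockout values were higher, though that of tumour 4 was close to that of parental tumour 4. The mean was higher by 1.24 in knockout tumours (p = 0.0286 by an exact permutation test, two-sided, the smallest that 4 against 4 tumours can give, and 0.0571 adjusted over the 4 pairs). The log2 ratio of HBEGF to TGFA averaged -1.23 ± 0.286 in parental and -0.63 ± 0.0732 in knockout tumours, with all 4 knockout values higher (difference 0.59, exact p = 0.0286, adjusted p = 0.0571). The ratio of ERBB2 to ERBB3 differed by 0.11 (exact p = 0.343, adjusted p = 0.343) and that of EREG to AREG by -0.20 (exact p = 0.314, adjusted p = 0.343). None of the 4 pairs passed the adjusted threshold of 0.05.

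The remaining ligands of the family were EGF, which binds EGFR, and the neuregulins NRG1, NRG2, NRG3 and NRG4, which bind ERBB3 or ERBB4. Of these 5 genes, 4 were tested, and by edgeR 2 fell and none rose, with 0 higher at an unadjusted p under 0.05. The edgeR share called was 50.0%, beside 27.0% of all genes tested. DESeq2 called 2 lower and limma-voom 1 lower, and neither called any higher. EGF fell from 16.2 ± 1.69 to 12.2 ± 2.09 CPM (log2 fold change -0.41 with SE 0.137, edgeR adjusted p = 0.0445), and the groups overlapped through knockout tumour 2. NRG2 had 21, 13, 48 and 29 counts in parental and 12, 10, 10 and 15 counts in knockout libraries (log2 fold change -1.20, edgeR adjusted p = 0.0318). Neither call was stable when 1 tumour was left out: that of EGF was lost without parental tumour 2, 3 or 4 or knockout tumour 1, 3 or 4, and that of NRG2 without parental tumour 3 or 4 or knockout tumour 1, 2 or 3. NRG1 had a log2 fold change of 0.30 (edgeR adjusted p = 0.191) and NRG4 one of 0.07 (edgeR adjusted p = 0.635). NRG3 had no count in any library.

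Genes of ligand shedding, the step that frees AREG, EREG, HBEGF and TGFA, moved both ways: of 10 tested, 2 rose and 4 fell, with a median log2 fold change of 0.12. In this list 60.0% were called, beside 27.0% of all genes tested. ADAM15, a membrane metalloprotease, fell from 317 ± 26.6 to 135 ± 12.2 CPM (log2 fold change -1.23 with SE 0.0960, edgeR adjusted p = 5.91e-06), with groups apart. ADAM12, a protease reported to release HBEGF, rose with a log2 fold change of 0.43 (edgeR adjusted p = 0.00400). FRMD8, which helps to keep ADAM17 at the cell surface, fell by 0.43 on the log2 scale, and RHBDL2, a rhomboid protease, fell by 0.85 (edgeR adjusted p = 0.0133 and 0.0254). RHBDL2 lost its call without parental tumour 3 or 4 or knockout tumour 1, 2 or 3, and FRMD8 lost its call without parental tumours 2 and 3 together (-0.28). ADAM17, the main sheddase of AREG, EREG, HBEGF and TGFA, and ADAM10, that of EGF and BTC, had log2 fold changes of 0.25 and 0.28 and did not pass the test (edgeR adjusted p = 0.0652 and 0.0849). These 2 were named for their role after their values were seen. Without knockout tumour 1, 3 genes of the list were called in place of 6.

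Inhibitors of the receptors and receptor phosphatases numbered 14, all tested, of which 5 rose and 3 fell, with a median log2 fold change of 0.21. The share called was 57.1%, beside 27.0% of all genes tested. LRIG1, a membrane protein that promotes the degradation of ErbB receptors, fell from 144, 151, 165 and 160.0 CPM in parental tumours to 28.8, 41.3, 31.6 and 37.0 CPM in knockout tumours. This was the strongest fall in the list, with groups far apart (log2 fold change -2.16 with SE 0.117, edgeR adjusted p = 6.93e-07). Its relative LRIG3 fell from 28.7 ± 6.23 to 11.1 ± 0.177 CPM (log2 fold change -1.37, edgeR adjusted p = 5e-05). SOCS2 and SOCS6, of the suppressor of cytokine signalling family, rose with log2 fold changes of 1.58 and 0.50 (edgeR adjusted p = 0.000154 and 0.00288). ERRFI1, the feedback inhibitor of EGFR also known as MIG6 and named here for that role after its value was seen, had a log2 fold change of 0.48 and did not pass the test (edgeR adjusted p = 0.0605).

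In the list of receptor endocytosis and degradation, 5 of 16 tested genes (31.2%) were called, all of them lower, with a median log2 fold change of -0.12. The share called in either direction was close to the 27.0% of all genes tested, of which 14.1% were called lower and 13.0% higher. None rose by edgeR, DESeq2 or limma-voom, and 0 were higher at an unadjusted p under 0.05 in edgeR. EPN3, an epsin of the endocytic coat, fell from 47.1 ± 5.47 to 22.8 ± 3.06 CPM (log2 fold change -1.05, edgeR adjusted p = 8.9e-05). RNF41, the ubiquitin ligase also known as NRDP1 that targets ERBB3, fell by 0.35 on the log2 scale, RAB7A, a GTPase of late endosomes, by 0.33 and CBLC, a ubiquitin ligase of the CBL family, by 0.42 (edgeR adjusted p = 0.0135, 0.0142 and 0.0148). RNF41 was not called without parental tumours 2 and 3 together (log2 fold change -0.27). CBLC was not called without knockout tumour 2 (log2 fold change -0.38), and 3 genes of the list were called without that tumour.

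Adaptors and first effectors of the receptors gave 1 gene that rose and 5 that fell of 20 tested, so that 30.0% were called beside 27.0% of all genes tested, with a median log2 fold change of -0.15. PIK3R3, a regulatory subunit of PI3K, fell from 19.4 ± 6.19 to 6.53 ± 1.07 CPM (log2 fold change -1.57, edgeR adjusted p = 0.000405). SHC4, an adaptor of the SHC family, had 39, 27, 84 and 92 counts in parental and 9, 10, 3 and 4 counts in knockout libraries (log2 fold change -3.14, edgeR adjusted p = 0.000460). VAV2, a guanine nucleotide exchange factor, rose by 0.53 on the log2 scale and NCK2, an adaptor, fell by 0.58 (edgeR adjusted p = 0.00256 and 0.0109).

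Genes of ERK output and feedback, which lie downstream of EGFR, numbered 18, of which 3 rose and 6 fell, with a median log2 fold change of -0.28. Thus 50.0% were called, beside 27.0% of all genes tested. ETV4, a transcription factor induced by ERK, fell from 35.9 ± 5.32 to 18.0 ± 0.502 CPM (log2 fold change -0.99, edgeR adjusted p = 7.44e-05). The feedback inhibitors SPRY1 and DUSP6 fell by 1.07 and 0.56 on the log2 scale, while SPRY2, another Sprouty, rose by 0.59 (edgeR adjusted p = 0.000350, 0.00279 and 0.00183). DUSP6 had 132.1, 130.7, 114.8 and 104.0 CPM in parental and 80.1, 72.2, 95.01 and 78.6 CPM in knockout tumours, with groups apart. FOSL1 and IER3, named after their values were seen as the other genes of the list that rose, had log2 fold changes of 0.50 and 0.53 (edgeR adjusted p = 0.0337 and 0.0108), and the remaining 9 genes were not called.

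**Figure D4:**
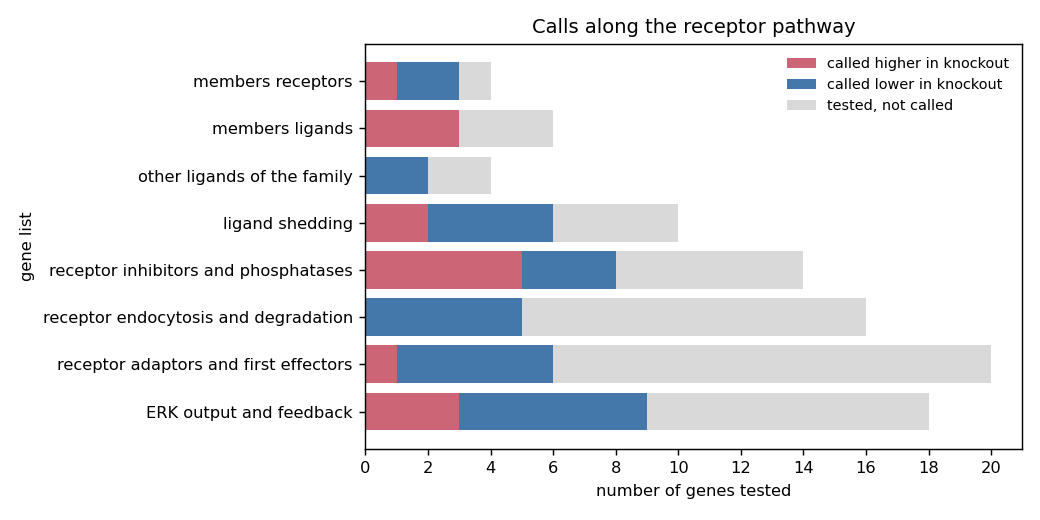
Number of tested genes called higher, called lower and not called in the receptors, the ligands and each pathway list. No gene was called higher in the list of endocytosis and degradation, and 6 of 18 ERK output genes were called lower. Over all genes tested, 13.0% were called higher and 14.1% lower.

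On chromosome 4, the ligand genes lie in the order EPGN, EREG, AREG and BTC, with chemokine genes before them and PARM1 after them. The gap was 49835 bases from EPGN to EREG and 289749 bases from AREG to BTC. AREG and EREG rose, and EPGN on one side and BTC on the other did not pass the test. Of 12 neighbour genes, 9 were tested, 1 rose and 3 fell, with a median log2 fold change of -0.01. Of those tested, 44.4% were called, beside 27.0% of all genes tested. PPBP, a platelet chemokine gene, rose from 1.03, 1.61, 1.70 and 0.382 CPM to 12.5, 14.1, 24.2 and 23.6 CPM (log2 fold change 3.98 with SE 0.370, edgeR adjusted p = 1.95e-05). PARM1, a mucin-like gene, fell from 32.4 ± 10.7 to 6.89 ± 4.20 CPM (log2 fold change -2.24, edgeR adjusted p = 0.000823). CXCL8 and CXCL1, which encode neutrophil chemokines, fell by 0.51 and 0.61 on the log2 scale with overlapping groups (edgeR adjusted p = 0.0386 and 0.0392). Their calls were lost when single tumours were left out, that of CXCL8 without parental tumour 2 or 3 or knockout tumour 2, 3 or 4 and that of CXCL1 without parental tumour 3 or knockout tumour 1, 3 or 4. Without parental tumours 2 and 3, which had high leukocyte marker sums, their log2 fold changes were -0.30 and -0.29 and neither was called. MTHFD2L, next to EPGN, had a log2 fold change of 0.09 and was not called.

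**Figure D5:**
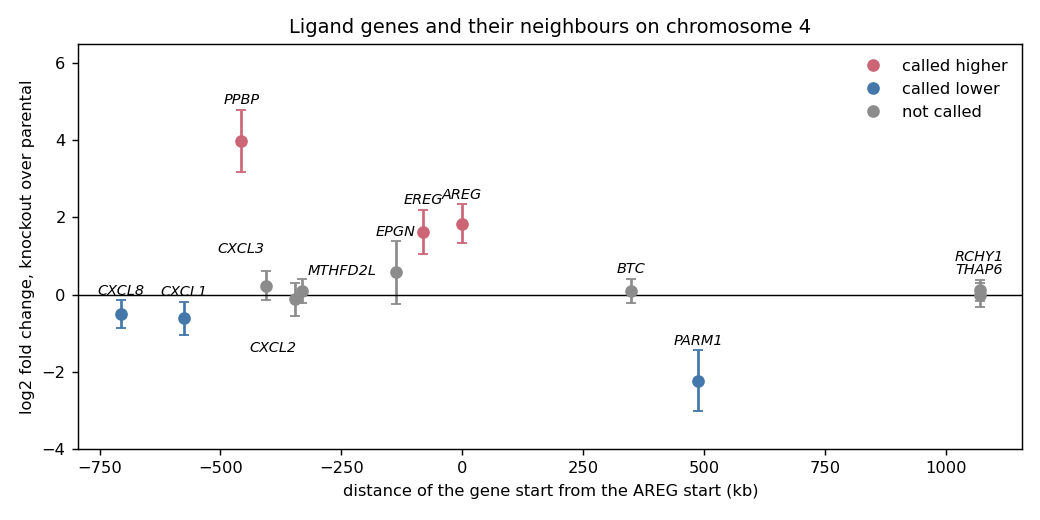
Log2 fold change, knockout over parental, with its 95% confidence interval, of the tested genes around the chromosome 4 ligands against the distance of their start from the AREG start in kb. EREG and AREG are called higher beside EPGN and BTC, which are not called, and PPBP lies highest at 3.98.

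Of 3 tested neighbours of EGFR, 1 was called (33.3%, beside 27.0% of all genes tested). This gene, VOPP1, beyond LANCL2 on the side after EGFR, fell from 114 ± 12.9 to 59.0 ± 4.27 CPM (log2 fold change -0.95, edgeR adjusted p = 4.27e-05), so that it and EGFR moved in opposite directions. Of 7 tested neighbours of ERBB2, 1 was called (14.3%): PGAP3 fell, by 0.46 on the log2 scale (edgeR adjusted p = 0.0389). That call was lost without parental tumour 2 or 3 or knockout tumour 1, 2 or 3, and without parental tumours 2 and 3 together it was -0.21. GRB7, an adaptor gene beside ERBB2 that is often amplified with it, had a log2 fold change of 0.40 and did not pass the test (edgeR adjusted p = 0.0693, named after its value was seen). None of the 6 tested neighbours of ERBB3 was called by edgeR, DESeq2 or limma-voom, and 1 had an unadjusted p under 0.05 in edgeR.

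Likeness of profile was measured as the root mean square difference of log2 CPM over the 8 tumours, after the parental mean of each gene was subtracted, among 13048 genes. The difference between groups stays in such a profile, so genes with a similar log2 fold change rank close. The ranks are therefore not a result separate from the fold changes. The genes most like ERBB2, the called receptor with the smallest p, were VPS51, CCDC88C and DOK4, with differences of 0.0676, 0.0743 and 0.0824. ERBB3 ranked 117 by likeness to ERBB2, with a difference of 0.166. Most like AREG, the called ligand with the smallest p, were C6orf223, CA2 and GPRIN3, with differences of 0.145, 0.147 and 0.200, and EREG ranked 11, with 0.250. CA2, which encodes a carbonic anhydrase, had 16.1, 23.9, 10.3 and 17.2 CPM in parental and 68.1, 65.7, 58.1 and 37.7 CPM in knockout tumours. Knockout tumour 4 was the lowest of its group, as for AREG. CA2 was picked for its likeness to AREG over these same tumours, so this shared feature follows from the choice.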

How the data were processed

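Whole-transcriptome RNA was sequenced from 4 parental and 4 SMARCA4 knockout tumours, grouped by the genotype and numbered by the title in the labels. The samples are labelled xenograft, while the extraction protocol speaks of RNA isolated from cells. The tumours were taken as the source. The authors deposited raw counts per gene symbol, 1 file per tumour, and per the submitters' processing notes TopHat2 2.1.1, HTSeq 0.11.0 and the build hg38 were used. The annotation, the strand setting and any removal of mouse reads are not given in the sources used here. The 5 summary lines entered neither the library sizes nor the tests. They held reads in no feature (6.08% to 10.4%), ambiguous reads (3.98% to 4.31%) and reads not aligned uniquely (4.52% to 8.11%), and 79.1% to 85.2% of reads were assigned. All 28 pairs of libraries differed beyond sampling noise.

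Counts were fitted with edgeR 4.0.16 in R 4.3.3, with filterByExpr (minimum count 10, minimum total 15), TMM scaling and the quasi-likelihood test over 16219 genes, and p-values were adjusted by Benjamini-Hochberg. The script was tested on simulated data. CPM is relative to TMM-scaled totals. Ratios between genes used log2(CPM + 0.5) and exact permutation tests (scipy 1.17.1). Positions and exon lengths came from GENCODE 29 by symbol, and promoters from RefSeq GRCh38.p14, which held 9 of the 10 genes. The ERBB3 promoter is not shown.

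The named genes were SMARCA4, the 10 family genes, EGF and NRG1 to NRG4 regardless of result, the 4 called genes with the smallest p in each pathway list, the called neighbours, and the 3 genes most like the called receptor and the called ligand with the smallest p, among genes whose mean log2 CPM was 1 or more. The members and lists were chosen with earlier results of these data known. Alternatives were DESeq2 1.42.0, limma-voom (limma 3.58.1), other scalings, filters and pseudocounts, the replicate number as a block and leaving out each tumour. Leaving out parental tumours 2 and 3 together was chosen after the data were seen.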

Additional observations from a re-analysis of the deposited data

Results flagged for a closer look

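In 108 sets of 4 tumours (a gene or a marker sum in 1 group), 7 had a tumour whose gap to its nearest neighbour exceeded Dixon's 95% critical share of the range of the set, and chance gives this in about 5% of sets. Among the family genes this was ERBB4, at 0.8287 CPM in parental tumour 2 against 1.29 to 1.38 CPM in the other parental tumours. EPN3, the epsin gene, was at 39.0 CPM in parental tumour 2 against 49.0 to 51.1 CPM. CBLC, the ubiquitin ligase gene, was at 37.6 CPM in knockout tumour 4 against 28.0 to 29.4 CPM. ETV4, the ERK target, was at 17.3 CPM in knockout tumour 3 against 18.2 to 18.4 CPM, a gap that is wide only beside a narrow group. VOPP1, near EGFR, was at 65.3 CPM in knockout tumour 3 against 56.3 to 57.3 CPM. The endothelial marker sum was 15.3 CPM in knockout tumour 2 against 8.86 to 9.23 CPM, and the skeletal muscle marker sum was 15.5 CPM in knockout tumour 4 against 0.389 to 0.933 CPM.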

How the results depend on the processing

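AREG, EREG, ERBB2 and ERBB3 kept their direction and their call in all 18 alternatives, with log2 fold changes of 1.68 to 2.05, 1.43 to 1.81, -0.66 to -0.43 and -0.79 to -0.45. The number of family genes called higher was 2 with the replicate number as a block, 2 without parental tumours 2 and 3, and 2 to 4 when 1 tumour was left out, since EGFR and HBEGF sat near the threshold. EGFR lost its call with limma-voom (0.70), with the replicate block (0.70) and without parental tumours 2 and 3 (0.74), and ranged from 0.49 to 0.96 when 1 tumour was left out. HBEGF lost its call with the replicate block (0.62) and without parental tumours 2 and 3 (0.56), and ranged from 0.47 to 0.78. TGFA ranged from -0.06 to 0.15 when 1 tumour was left out and was negative without parental tumour 1 (-0.04) or knockout tumour 1 (-0.06) or 3 (-0.03), and BTC was at -0.0005 without parental tumours 2 and 3. The replicate number did not pair the tumours: deviations of same-numbered tumours correlated at -0.034, 0.00941, -0.297 and 0.112 over genes, and the replicate block gave 3871 called genes in place of 4385. No scaling moved the median of all genes by more than 0.04. For the other 37 named genes, 619 of 665 fits kept direction and call and 46 kept the direction only. The 4 ratios changed neither direction nor side of the threshold, but with 3 against 4 tumours the smallest exact p is 0.0571. Depth limits ERBB4 and EPGN, with at most 32 counts in a library.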
